A study of Mus musculus with 12 samples.

Results

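The 9 genes described here encode enzymes of the citric acid cycle and were chosen by name: *Cs*, *Idh3a*, *Idh3b*, *Idh3g*, *Ogdh*, *Suclg1*, *Sucla2*, *Fh1* and *Mdh2*, taken in the order in which their enzymes act. All 9 were found among the 24824 genes of the deposited expression table, and all 9 were among the 10615 genes that passed the filter on low values. The rule uses names and no measured value, though it was drawn up with earlier results of these data known. The libraries came from AML12, a mouse hepatocyte line labelled wild type, immortalized by a transforming growth factor alpha transgene in the mouse of origin. Group A was cultured in standard medium without treatment, group B with CuCl2 at 300 μM plus elesclomol, an ionophore that carries copper into cells, at 40 nM (together Cu/ES), group C with the same Cu/ES and 1000 μM taurocholic acid (TCA), and group D with 1000 μM TCA without Cu/ES, in every case for 24 h. Each group had 3 libraries of polyadenylated RNA. The study asked what copper loading does to hepatocytes and what a bile acid adds to it, so groups B and A, C and B, D and A, and C and D were compared.

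The citric acid cycle runs in the mitochondrial matrix, where it oxidizes acetyl groups to carbon dioxide and passes their electrons to the respiratory chain. Citrate synthase (*Cs*) joins acetyl-CoA to oxaloacetate. The NAD-linked isocitrate dehydrogenase (*Idh3a* catalytic, *Idh3b* and *Idh3g* accessory subunits) and the oxoglutarate dehydrogenase complex (*Ogdh*) each release carbon dioxide, and succinyl-CoA ligase (*Suclg1* with *Sucla2* or *Suclg2*), fumarase (*Fh1*) and mitochondrial malate dehydrogenase (*Mdh2*) lead back to oxaloacetate. Oxoglutarate dehydrogenase carries lipoic acid on its *Dlst* subunit, and lipoylated enzymes of this kind are known targets of copper in cells loaded by an ionophore. In the text below, TCA always means taurocholic acid and never the cycle.

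The sequences just upstream of the gene starts are shown for the member that fell furthest with Cu/ES (*Fh1*) and for the pair whose FPKM did not fall (*Cs* and *Mdh2*), a choice made with the values known. Each is the strand of the gene, 5′ to 3′, over 250 bases that end at the base before the start listed by RefSeq on GRCm38.p6, at chr10:128337477-128337726 (plus strand) for *Cs*, chr1:175625636-175625885 (minus strand) for *Fh1* and chr5:135778399-135778648 (plus strand) for *Mdh2*. Capitals mark, on either strand, the letters GGGCGG of the element called a GC box, and the letters after which the CCAAT box is named.
Cs: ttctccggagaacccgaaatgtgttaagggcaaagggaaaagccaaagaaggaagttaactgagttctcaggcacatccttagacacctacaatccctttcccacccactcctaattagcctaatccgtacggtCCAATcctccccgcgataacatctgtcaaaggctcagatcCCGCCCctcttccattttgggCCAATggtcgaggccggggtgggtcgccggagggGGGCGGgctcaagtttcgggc
Fh1: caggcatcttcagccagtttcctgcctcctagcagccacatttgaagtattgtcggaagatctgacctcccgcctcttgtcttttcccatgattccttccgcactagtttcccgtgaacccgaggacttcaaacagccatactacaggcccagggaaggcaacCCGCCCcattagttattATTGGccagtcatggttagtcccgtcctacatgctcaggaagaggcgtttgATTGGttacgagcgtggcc
Mdh2: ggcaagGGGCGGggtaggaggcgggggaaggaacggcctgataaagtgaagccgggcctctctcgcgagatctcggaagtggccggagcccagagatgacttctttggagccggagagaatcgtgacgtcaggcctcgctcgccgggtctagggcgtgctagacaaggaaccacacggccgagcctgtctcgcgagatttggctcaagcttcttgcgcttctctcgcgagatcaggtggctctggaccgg
Such windows were matched for 8 of the 9 members. A GC box stood in 4 of them (*Cs*, *Sucla2*, *Fh1* and *Mdh2*) and in 32.9% of the 27025 windows of all genes, and a CCAAT box in 4 (*Cs*, *Idh3b*, *Ogdh* and *Fh1*) and in 34.5%. An ETS site (CCGGAAG) was found for *Idh3g* alone among the 8 (7.05% of all windows). The letters of an antioxidant response element (TGACNNNGC, 10.1% of all windows) were found at *Idh3g* and *Sucla2*. None of the 8 windows held the letters of a metal response element (TGCGCNC, 12.6% of all windows) or an estrogen-related receptor site (AAGGTCA, 4.05%). *Cs* and *Fh1* both held a GC box and a pair of CCAAT boxes, and *Mdh2* held a GC box but no CCAAT box. Whether any of these letters bear on the response to Cu/ES was not tested.

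Expression is given as FPKM, a count corrected for gene length and library size, so levels can be compared between genes. Recovered library totals were 38298858 to 39108520 reads in group A, 30773753 to 32002325 in group B, 29115012 to 34912749 in group C and 39444421 to 39782143 in group D. Counts behind a member ranged from 105 reads (*Fh1*, library C1) to 18104 reads (*Cs*, library D3). The 50 most abundant genes took 22.0% to 22.5% of summed FPKM in group A and 37.5% to 37.7% in group B, and the typical gene tested was lower wherever Cu/ES was added, with a median log2 fold change of -1.10 in group B vs. A and -1.13 in C vs. D. Without that contrast the median was -0.03 (C vs. B) or -0.01 (D vs. A). For this reason the members' differences between groups with and without Cu/ES are given as measured and again relative to the other genes. Of 8 hepatocyte markers, 6 were in the table. In group A only *Krt8* and *Krt18*, which epithelial cells in general express, reached 1 FPKM, while *Alb* and *Hnf4a* were listed at 0 in every library of groups A and D. The summed FPKM of the hepatocyte list was 596 to 649 in group A, 236 to 287 in B, 172 to 208 in C and 697 to 717 in D. Nearly all of it came from *Krt8* and *Krt18* (344 and 285 FPKM on average in A, 183 and 81.9 in B). *Apoa1* went the other way, from 0.00863 in A to 1.86 in B and 1.11 in C. The fibroblast list, of which 2 of 4 reached 1 FPKM in group A, summed to 132 to 195 in A, 2.71 to 4.95 in B, 1.05 to 1.75 in C and 114 to 176 in D. The macrophage list (2 of 4, *Adgre1* at 0) summed to 79.4 to 108 in A, 25.7 to 31.4 in B, 25.0 to 37.6 in C and 32.2 to 45.2 in D. The cholangiocyte list (2 of 4) summed to 230.5 to 326, 111 to 139.9, 130.5 to 136 and 158 to 246 in the same order. Within it *Krt19* averaged 268 FPKM in A and 77.3 in B while *Sox9* averaged 10.6 and 50.9. The endothelial list (0 of 4) summed to 0.922 to 1.16, 6.79 to 10.5, 16.5 to 19.7 and 0.865 to 1.25. The part of these shifts in the members' changes was not tested. In bulk RNA, fewer cells of a type and less RNA per cell cannot be told apart.

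With Cu/ES alone, 7 of the 9 cycle genes had lower FPKM in group B than in group A, *Mdh2* had higher FPKM, and *Cs* did not pass the test. *Fh1* fell furthest, by 11.2-fold, followed by *Idh3a*, *Ogdh*, *Sucla2* and *Suclg1*, each of which fell by more than 1 on the log2 scale. Among all genes tested, 72% were called lower and 20.1% higher in this comparison at an adjusted p under 0.05 (limma, Benjamini-Hochberg), so 7 of 9 lower is near the background. Past an absolute log2 fold change of 1 as well, 5 members were lower and 0 higher, where 53% and 10.1% of all genes were called. The median log2 fold change was -1.07 over the members and -1.10 over all genes. What set the members apart from each other was the spread around that median, from -3.24 to 0.23.

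**Figure D1:**
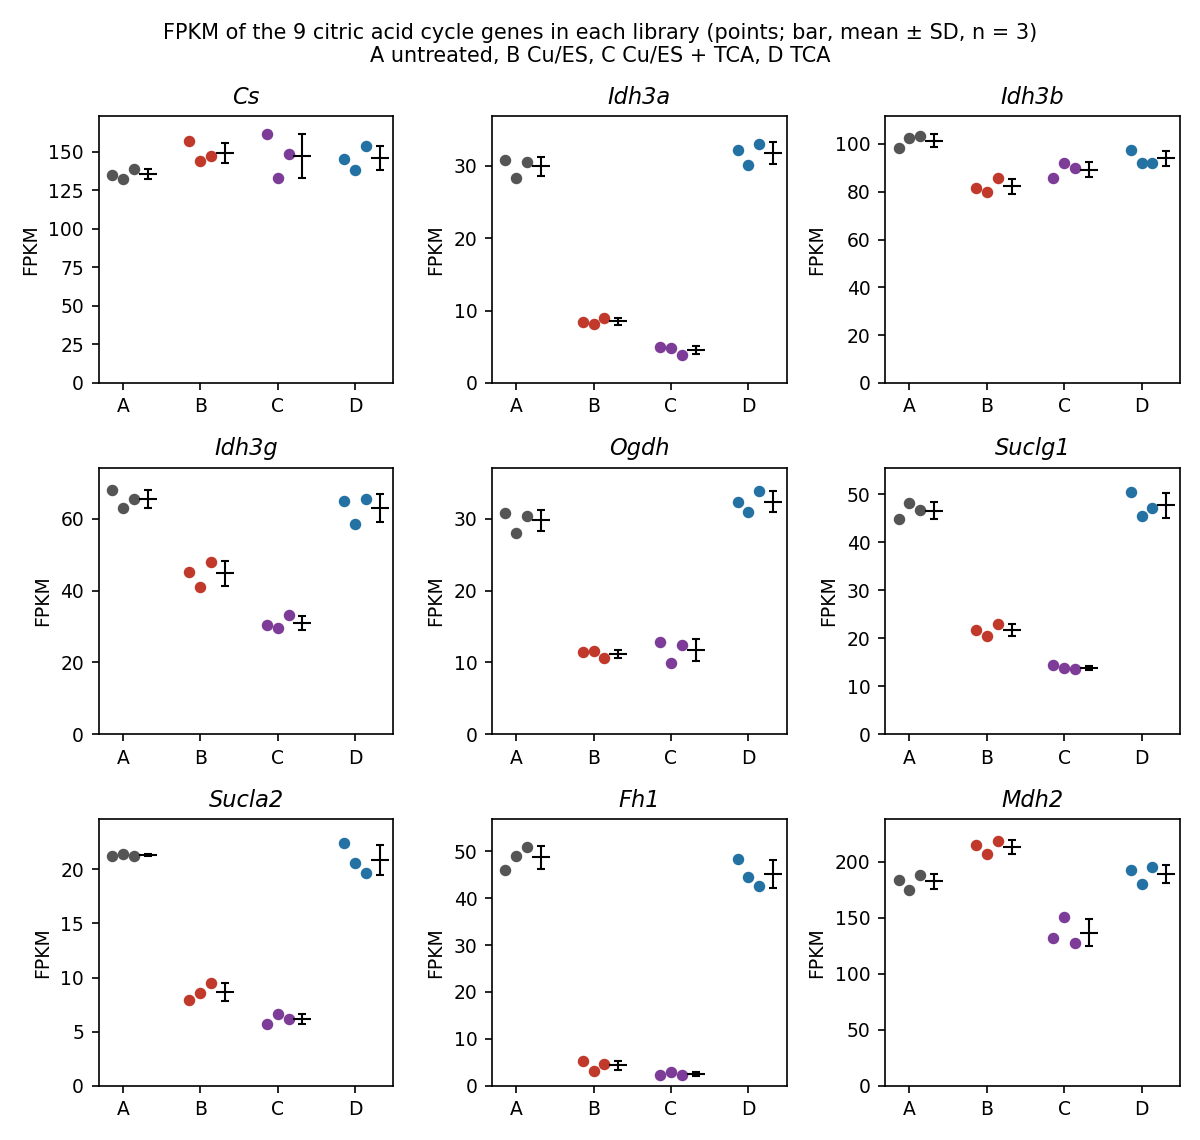
FPKM of each of the 9 cycle genes in each library (points) of groups A (untreated), B (Cu/ES), C (Cu/ES with TCA) and D (TCA), with the mean and SD of 3 libraries (bars); every vertical axis starts at 0 and has its own range. *Fh1* drops from between 46.0 and 51.0 FPKM in group A to at most 5.22 in group B, whereas *Cs* stays between 132 and 161 in all 12 libraries.

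*Cs*, the enzyme of the entry step, measured 135, 132 and 139 FPKM in the libraries of group A and 157, 144 and 147 in those of group B. The libraries of group B were all above those of group A, but the difference missed the threshold (log2 fold change 0.14, SE 0.0727, adjusted p = 0.0857, limma). Its 95% interval ran from -0.02 to 0.29. *Mdh2*, the enzyme of the last step, had 184, 175 and 188 FPKM without treatment and 215, 207 and 219 with Cu/ES. It rose by 0.23 on the log2 scale (SE 0.0683, adjusted p = 6.24e-03, limma), although the direction turned with other scalings, to -0.14 with TPM and -0.21 after quantile normalization.

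The 3 subunits of isocitrate dehydrogenase fell by very different amounts. *Idh3a*, which carries the catalytic residues, measured 30.8, 28.4 and 30.6 FPKM in group A against 8.43, 8.07 and 8.99 in group B. The groups were far apart, with a log2 fold change of -1.70 (SE 0.0830, adjusted p = 6.57e-11, limma). *Idh3b* had 98.3, 102 and 103 FPKM without treatment and 81.5, 79.7 and 85.6 with Cu/ES. *Idh3g* had 68.1, 63.0 and 65.6 without and 45.3, 41.1 and 48.0 with it. Neither accessory subunit overlapped between groups, yet their log2 fold changes of -0.30 (adjusted p = 1.77e-04) and -0.54 (adjusted p = 7.04e-06) were smaller in size than that of *Idh3a*.

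*Ogdh*, the decarboxylating subunit of its complex, went from 30.8, 28.0 and 30.4 FPKM to 11.5, 11.5 and 10.6, a log2 fold change of -1.33 (SE 0.0876, adjusted p = 1.83e-09, limma). *Suclg1*, the subunit that both forms of succinyl-CoA ligase share, went from 44.8, 48.3 and 46.8 FPKM to 21.7, 20.4 and 23.0. Its ATP-forming partner *Sucla2* went from 21.2, 21.4 and 21.3 to 7.91, 8.52 and 9.52. These 3 genes lay close to the median of all genes, with log2 fold changes of -1.07 for *Suclg1* (adjusted p = 9.76e-10) and -1.21 for *Sucla2* (adjusted p = 2.21e-09), and 0.03 and -0.11 once the median was taken off.

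*Fh1*, which hydrates fumarate to malate and also acts outside mitochondria, measured 46.0, 49.0 and 51.0 FPKM without treatment and 5.22, 3.22 and 4.58 with Cu/ES. Its highest library in group B stood far below its lowest in group A. The log2 fold change was -3.24 (SE 0.126, adjusted p = 6.38e-12, limma), and 3.33% of all genes tested had a lower one. The values of group B rest on 270.0, 168 and 230.0 recovered reads.

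**Figure D2:**
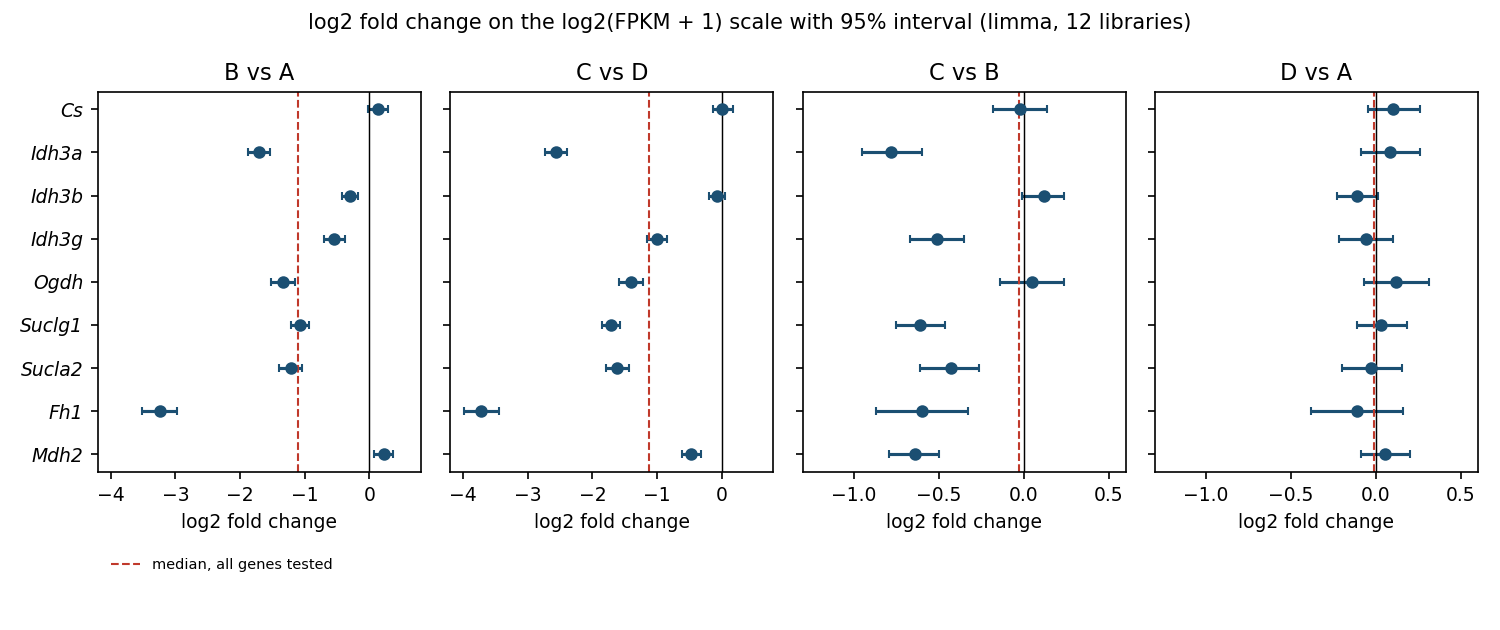
Log2 fold change of each cycle gene on the log2(FPKM + 1) scale (points) with its 95% interval (bars) in 4 comparisons; the black line is 0 and the dashed line the median of all 10615 genes tested. In B vs. A and C vs. D the members spread on both sides of a median of -1.10 and -1.13. In C vs. B 7 of them lie below 0, of which 6 were called lower, and in D vs. A every interval includes 0.

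Scaling each library by the median ratio over genes, which sets the typical gene near 0 (median of all genes -0.03), changed the direction of several members. On that scale 2 members were lower and 5 higher in group B than in group A, where 45% and 42.8% of all genes were called. *Fh1* (-2.07) and *Idh3a* (-0.50) were the 2 that were lower on both scales. *Cs* (1.42), *Mdh2* (1.51), *Idh3b* (0.97), *Idh3g* (0.72) and *Suclg1* (0.18) were higher, 3 of which had been lower as deposited. *Ogdh* (-0.12) and *Sucla2* (-0.01) did not pass, with intervals from -0.29 to 0.05 and from -0.22 to 0.19. This scaling divides each library by a single factor, so it keeps the order of the members nearly by construction.

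**Figure D3:**
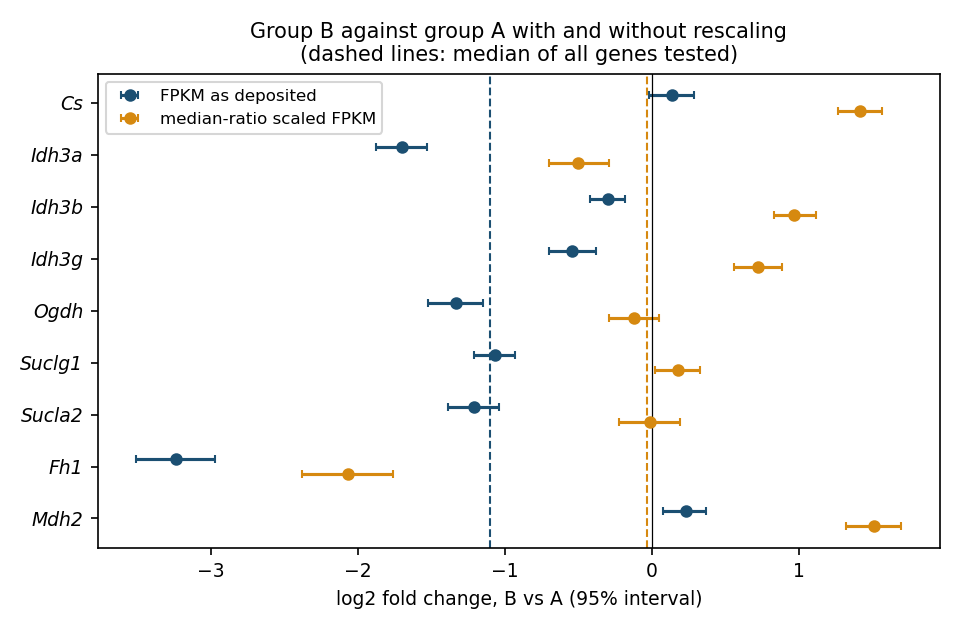
Log2 fold change of each cycle gene for group B vs. A (points, 95% intervals as bars) from FPKM as deposited and from FPKM scaled by median ratios, with the median of all genes tested as dashed lines at -1.10 and -0.03. *Fh1* and *Idh3a* lie below 0 on both scales, and *Idh3b*, *Idh3g* and *Suclg1* change sides.

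The 9 genes together summed to 659, 648 and 676 FPKM in group A, 553, 523 and 556 in B and 449.6, 443 and 437 in C, with group D overlapping group A (669.9 ± 25.3 against 661 ± 14.4, mean ± SD, n = 3). After median-ratio scaling the sums turned the other way, from between 407 and 435 in A to between 812 and 869 in B. The share of a gene in the sum, like a ratio of genes within a library, does not depend on how the library is scaled. The share of *Mdh2* went from 27.6% ± 0.512 in group A to 39.2% ± 0.321 in group B (SD, n = 3) and *Cs* from 20.5% ± 0.0465 to 27.4% ± 0.924. *Fh1* went from 7.37% ± 0.331 to 0.794% ± 0.166 and *Idh3a* from 4.53% to 1.56%. *Idh3b* held its share, with 15.3% and 15.1% and overlapping libraries. Of 36 comparisons of shares, 30 had no overlap between the groups, and the exact permutation test of 3 libraries against 3 cannot go below p = 0.1 (two-sided, smallest adjusted p = 0.12). Such gaps also arose in D vs. A, where no member passed, as for *Cs* (21.8% against 20.5%) and *Mdh2* (28.2% against 27.6%). The shares are parts of the same sum and the comparisons reuse groups, so they are not separate results. No such count was made over all genes.

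**Figure D4:**
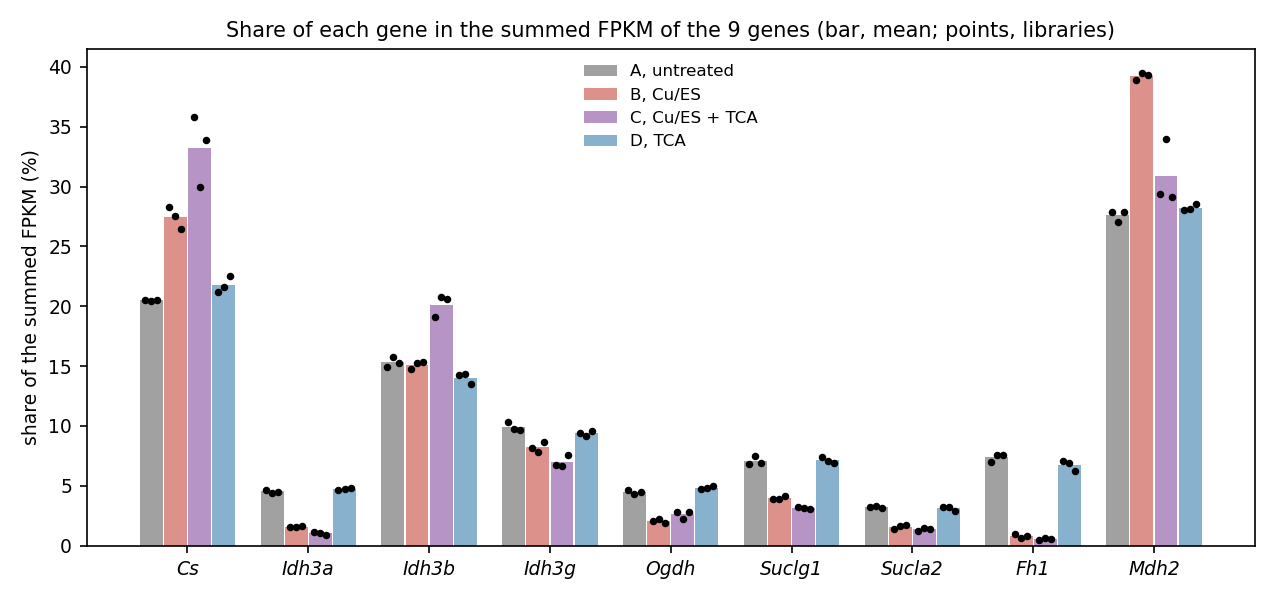
Share of each cycle gene in the summed FPKM of the 9 genes, in percent, as the mean of 3 libraries for groups A to D. *Mdh2* and *Cs* make up a larger part in group B (39.2% and 27.4%) than in group A (27.6% and 20.5%), and *Fh1* shrinks from 7.37% to 0.794%.

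The subunits of isocitrate dehydrogenase therefore stood in other proportions with Cu/ES. The ratio of *Idh3b* to *Idh3a* was 3.39 ± 0.210 in group A, 9.69 ± 0.180 in B, 19.8 ± 2.98 in C and 2.96 ± 0.150 in D (SD, n = 3). The ratio of *Idh3g* to *Idh3a* went from 2.19 ± 0.0413 in group A to 5.27 ± 0.156 in B and 6.92 ± 1.34 in C. In succinyl-CoA ligase, the ratio of *Suclg1* to *Sucla2* moved less, with means of 2.19, 2.52, 2.28 and 2.29 in groups A to D. Its libraries in group B (2.40 to 2.74) still lay above those in group A (2.11 to 2.26). The ATP-forming *Sucla2* against the GTP-forming *Suclg2* went from 0.803 in group A to 1.66 in B. *Mdh2* against *Fh1*, the enzymes of consecutive steps, went from 3.75 to 51.1 ± 11.9. Among 32 comparisons of ratios, 23 had no overlap between groups (smallest adjusted p = 0.139, exact permutation test). They reuse genes and groups, and *Idh3b* to *Idh3a* did not overlap in D vs. A either (2.96 against 3.39). Ratios of other pairs of genes were not counted, so the 23 have no background beside them.

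**Figure D5:**
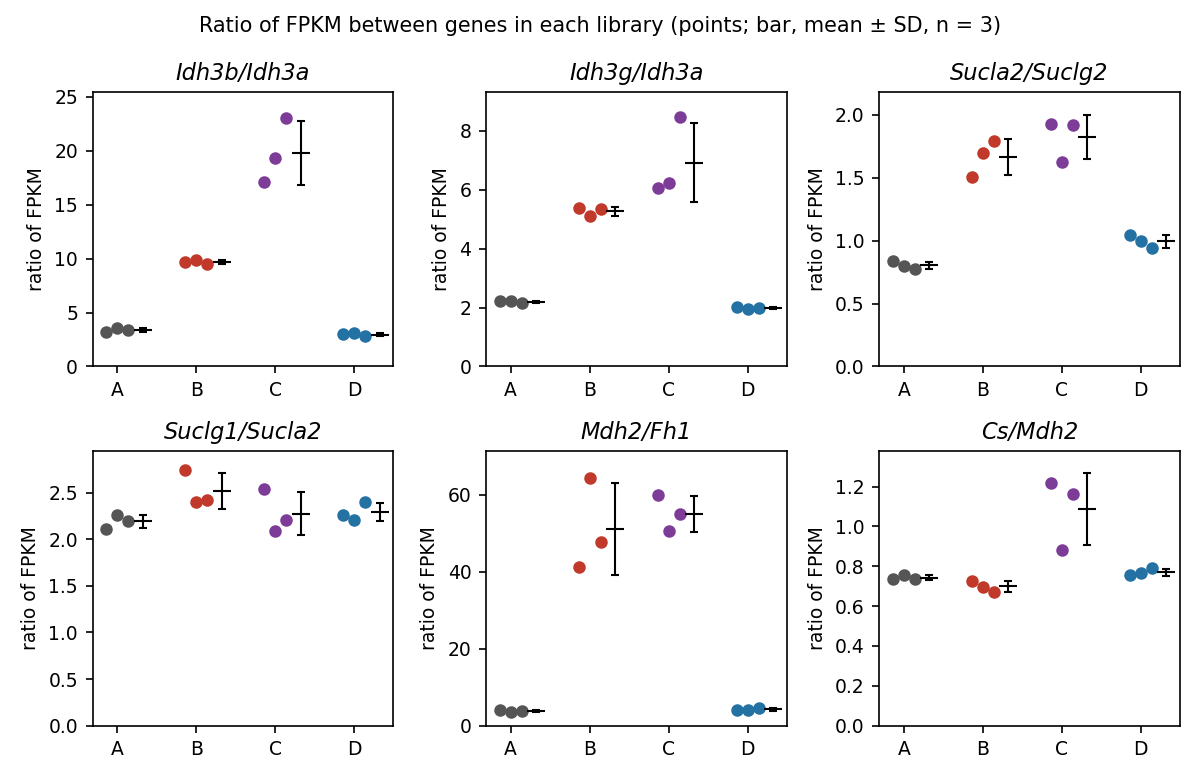
Ratios of FPKM between cycle genes within each library (points) for groups A to D, with the mean and SD of 3 libraries (bars); every axis starts at 0. *Idh3b* to *Idh3a* climbs from 3.39 in group A to 9.69 in B and 19.8 in C, while *Suclg1* to *Sucla2* stays between 2.19 and 2.52 on average.

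When TCA was added to Cu/ES, FPKM of 6 of the 9 members was lower in group C than it was in B and that of 0 was higher, at an adjusted p under 0.05 (limma), where 23.6% of all genes were called lower and 20.4% higher. None changed by more than 1 on the log2 scale (1.16% of all genes lower and 1.13% higher past both thresholds). The members' median log2 fold change was -0.51, against -0.03 for all genes. Median-ratio scaling also gave 6 and 0, where 24.3% and 22.6% of all genes were called.

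*Idh3a*, already low in group B, measured 5.01, 4.75 and 3.92 FPKM in group C and fell by a further 0.78 on the log2 scale (SE 0.0830, adjusted p = 9.93e-06, limma). This was the largest change among the members, and 3.18% of all genes had a lower value. *Mdh2* measured 132, 151 and 127 FPKM in group C, all below the 207 to 219 of group B and below the 175 to 188 of group A. Its log2 fold change of -0.64 (SE 0.0683, adjusted p = 9.51e-06) had the opposite sign to its change with Cu/ES alone in FPKM as deposited, though not with TPM or quantile normalization. *Suclg1* fell to 14.4, 13.8 and 13.6 FPKM (log2 fold change -0.61, adjusted p = 1.19e-05) and *Sucla2* to 5.66, 6.60 and 6.16 (-0.43, adjusted p = 7.01e-04), so both subunits of the ligase moved the same way.

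*Idh3g* fell to 30.5, 29.5 and 33.1 FPKM (log2 fold change -0.51, adjusted p = 9.99e-05, limma), whereas its partner *Idh3b* measured 85.8, 91.9 and 90.1 against 81.5, 79.7 and 85.6 in group B and did not pass (0.12, adjusted p = 0.115). The accessory subunits thus differed from each other in this comparison, with a ratio of *Idh3b* to *Idh3g* of 1.84 in group B and 2.88 in group C. *Fh1* measured 2.21, 2.98 and 2.31 FPKM in group C, below every library of group B (log2 fold change -0.60, SE 0.126, adjusted p = 1.71e-03). These values rest on 105, 170.0 and 122 reads.

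*Cs* measured 161, 133 and 148 FPKM in group C and *Ogdh* 12.8, 9.91 and 12.4, and both overlapped group B. Their log2 fold changes were -0.02 (adjusted p = 0.841, 95% interval -0.18 to 0.14) and 0.05 (adjusted p = 0.674, -0.14 to 0.24). With *Mdh2* lower and *Cs* not, the ratio of *Cs* to *Mdh2* went from 0.699 in group B to 1.09 in group C, against 0.743 in group A, and the share of *Cs* in the 9 genes was 33.2% ± 2.99 (SD, n = 3).

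TCA without Cu/ES changed 0 of the 9 members at an adjusted p under 0.05 (limma), where 11.5% of all genes were called lower and 10.5% higher. Log2 fold changes of group D vs. A ran from -0.11 (*Idh3b* and *Fh1*) to 0.12 (*Ogdh*), with adjusted p from 0.190 to 0.849. *Idh3b* measured 97.7, 92.1 and 92.0 FPKM in group D, all below group A, and *Ogdh* 32.4, 30.9 and 33.8, all above it. Such gaps were common: 23.5% of all genes lay wholly below and 20.7% wholly above group A. Libraries of the other 7 members overlapped. *Fh1* measured 48.3, 44.5 and 42.6 FPKM in group D, and its 95% interval of -0.38 to 0.16 was the widest.

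With TCA present in both groups, Cu/ES gave 7 members lower and 0 higher in group C than in group D (limma, adjusted p under 0.05), where 71.5% and 20.9% of all genes were called. Groups C and D share no library with groups A and B. The fit took the spread from all 12 libraries, however, so the p-values of this comparison and of B vs. A are not independent. *Fh1* again fell furthest, by 18.0-fold (log2 fold change -3.72, SE 0.126, adjusted p = 1.48e-12), then *Idh3a* (-2.56), *Suclg1* (-1.71), *Sucla2* (-1.62), *Ogdh* (-1.40), *Idh3g* (-1.0) and *Mdh2* (-0.47, adjusted p = 1.30e-05). Past an absolute log2 fold change of 1 as well, 5 members were lower and 0 higher, against 53.3% and 11.2% of all genes. *Idh3b* (-0.07, adjusted p = 0.230) and *Cs* (0.01, adjusted p = 0.869) did not pass. After median-ratio scaling 5 members were lower (*Fh1*, *Idh3a*, *Suclg1*, *Sucla2* and *Ogdh*) and 4 higher (*Cs*, *Idh3b*, *Mdh2* and *Idh3g*), where 46.8% and 42% of all genes were called.

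The change with TCA under Cu/ES was then compared with the change with TCA alone, as the interaction (C minus B) minus (D minus A). It was below 0 for 6 members and above 0 for 1 at an adjusted p under 0.05 (limma), where 19.8% and 17.7% of all genes were called. *Idh3a* (-0.86, adjusted p = 1.50e-04), *Mdh2* (-0.69, 1.68e-04), *Suclg1* (-0.64, 2.39e-04), *Idh3g* (-0.46, 4.29e-03) and *Sucla2* (-0.41, adjusted p = 0.0135) passed. Their FPKM was lower with TCA under Cu/ES, while without Cu/ES none of them passed. Their log2 fold changes in D vs. A were 0.08, 0.05, 0.03, -0.06 and -0.03 in the same order. The call of *Sucla2* was lost by a narrow margin after quantile normalization (adjusted p = 0.0501, range over the alternatives 0.00546 to 0.0501). *Fh1* (-0.49, adjusted p = 0.0450) and *Idh3b* (0.23, adjusted p = 0.0413) lay just inside the threshold, and *Cs* (-0.12) and *Ogdh* (-0.07) did not pass. Leaving out 1 library lost the call of *Fh1* in 10 of 12 fits (all libraries except B2 and C2, adjusted p up to 0.109) and that of *Idh3b* in 7 of 12 (A2, A3, B1, B2, C3, D2 or D3, adjusted p up to 0.0928).

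Further subunits of the cycle were counted as a list. All 8 of them (*Suclg2*, *Dlst*, *Dld*, *Mrps36*, *Sdha*, *Sdhb*, *Sdhc* and *Sdhd*) were lower in group B vs. A (median -1.59 on the log2 scale), where 72% of all genes were called lower and their median was -1.10. Median-ratio scaling left 4 lower and 2 higher, where 45% and 42.8% of all genes were called. The largest changes were those of *Mrps36* (-2.23), which ties the lipoamide dehydrogenase to the oxoglutarate dehydrogenase complex, *Suclg2* (-2.15), and the succinate dehydrogenase subunits *Sdha* (-1.86) and *Sdhc* (-1.77), which measured -1.05, -0.98, -0.61 and -0.51 after that scaling. In group C vs. B, 7 of the 8 were lower and 0 higher (23.6% and 20.4% of all genes), led by *Sdhc* (-1.08), the iron-sulfur subunit *Sdhb* (-0.85), *Mrps36* (-0.73) and *Sdha* (-0.64). *Suclg2* had 25.4, 26.8 and 27.5 FPKM in A, 5.25, 5.03 and 5.31 in B, 2.94, 4.06 and 3.20 in C and 21.5, 20.7 and 20.9 in D. *Sucla2* had been the less abundant partner of *Suclg1* in group A and was the more abundant in groups B and C. In group D its ratio to *Suclg2* was 0.993, against 0.803 in group A. *Suclg2* was called lower in D vs. A (-0.32, adjusted p = 0.0178, limma), but not after median-ratio scaling (adjusted p = 0.0878). In that comparison 1 of the 8 was lower and 0 higher (11.5% and 10.5% of all genes).

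Around the cycle, 8 of 14 genes of pyruvate entry were lower and 4 higher in group B than in group A (72% and 20.1% of all genes), but 5 lower and 6 higher after median-ratio scaling (45% and 42.8%). *Pdk1*, a kinase that inhibits pyruvate dehydrogenase, went from 54.0 to 0.396 FPKM on average (log2 fold change -5.30), followed by *Pdpr* (-2.52), *Pdk2* (-1.98) and *Pdha1* (-1.86), the catalytic subunit of the dehydrogenase. After median-ratio scaling these 4 measured -4.46, -1.88, -1.51 and -0.62. The order depends on the log2(FPKM + 1) scale, which understates changes of low genes. With limma-voom on recovered reads *Pdk2* (-8.16) fell further than *Pdk1* (-7.16), and *Pdk3* (-2.59) further than *Pdha1* (-1.93). The 4 that were higher in FPKM were *Pdk4* (1.78, from 0 to 2.58 FPKM on average), *Pdhb* (1.21), *Pdhx* (0.69) and *Pdp2* (0.35). In group C vs. B (23.6% of all genes lower and 20.4% higher), 3 were lower, with *Dlat* and *Pdhx* (both -0.54) furthest, and 4 higher, among them *Pdp2* (0.44) and *Pdhb* (0.42). Of 12 tested counterparts outside the cycle and filling reactions, 10 were lower and 2 higher in group B vs. A (72% and 20.1% of all genes), and 7 lower and 4 higher after median-ratio scaling. *Pck2* (-3.85), *Idh1* (-3.30), *Idh2* (-2.71) and *Ogdhl* (-2.56) fell furthest, at -2.69, -2.21, -1.55 and -1.49 after that scaling, so the NADP-linked isocitrate dehydrogenases fell along with *Idh3a*. In group C vs. B 7 were lower and 0 higher, with *Idh2* (-1.28), *Glud1* (-0.90), *Mdh1* (-0.53) and *Me1* (-0.36) changed most. All 6 tested carriers of cycle metabolites were lower in group B (72% of all genes), and 4 lower and 1 higher after median-ratio scaling, led by the citrate carrier *Slc25a1* (-2.99), then *Slc25a12* (-2.48), *Slc25a22* (-1.93) and *Slc25a11* (-1.57), which measured -1.79, -1.6, -0.95 and -0.32 on the other scale. With limma-voom on recovered reads *Slc25a12* (-3.54) fell further than *Slc25a1* (-3.18). In group C vs. B, 2 of the 6 carriers were lower. In group D vs. A, 11.5% of all genes were called lower and 10.5% higher. There 4 of the 14 genes of pyruvate entry were lower, among them *Pdk1* (-0.69), and 1 was higher. Of the 12 counterparts 4 were lower, among them *Ogdhl* (-0.86), and 0 higher, and no carrier was called.

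The summed FPKM of the 9 members was most alike, over the 12 libraries on the log2 scale, to *Uqcc2* (Pearson r = 0.996), *2810025M15Rik* (0.995), *Atp5b* (0.994), *Rnaseh2c* (0.993) and *Tpm2* (0.993). These values describe 4 groups that lie far apart and share depth and composition within a group, and 700 genes had an r above 0.95.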

How the data were processed

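RNA-seq of AML12 cells was analysed, 12 libraries in 4 groups of 3 given by the sample labels. Per the submitters' notes the authors used fastp, HISAT2, HTSeq and GRCm39. Versions and annotation are not given in the sources used here, nor how reads shared with near-identical copies were counted. The authors deposited FPKM per gene and library. The study's own test was DESeq2, which was not run here.

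Numbers of reads were recovered from the spacing of FPKM values: all 22212 genes above 0 in at least 2 libraries gave whole reads within 0.02 reads. They cover counting error only. The 10615 genes whose FPKM averaged 1 or more were fitted as log2(FPKM + 1) in all 12 libraries with limma 3.58.1 (R 4.3.3, empirical Bayes with trend, 8 residual degrees of freedom, two-sided, Benjamini-Hochberg). Fold changes on this scale understate those of low genes. The labels do not say that libraries are separate cultures, so p-values measure the spread between these libraries.

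The members, gene lists, motifs and ratios were chosen with earlier results of these data known. All members are named, and of each list at most 4 genes with the largest fold change in B vs. A and in C vs. B. The genes of pyruvate entry that were higher in B vs. A are named as well. *Me3*, *Gls2*, *Pck1* and *Slc25a21* were not tested, and some list members are not reported here and were left out of the counts. Deviations of same-numbered libraries of groups A and B correlated at 0.142 to 0.174 over genes. All 18 same-numbered pairs ran from -0.171 to 0.579 (mean 0.125), and the 36 other pairs from -0.51 to 0.367 (mean -0.059). Whether replicate numbers from the labels pair libraries is thus not settled, and a replicate block was an alternative. Others were pseudocount 0.1, no filter, a mean FPKM of at least 5, TPM, median-ratio and quantile scaling, no trend, only the groups compared, limma-voom on recovered reads and leaving out each library. The steps were tested on simulated data. Tables and plots came from Python 3.11.15 (matplotlib 3.10.9, scipy 1.17.1, numpy 2.4.6, pandas 2.3.3).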

Additional observations from a re-analysis of the deposited data

Results flagged for a closer look

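The change with TCA differed between cells with and without Cu/ES for 7 members by the interaction term (limma, adjusted p under 0.05), where 19.8% of all genes were called below 0 and 17.7% above. The differences on the log2 scale were -0.86 for *Idh3a*, -0.69 for *Mdh2*, -0.64 for *Suclg1*, -0.49 for *Fh1*, -0.46 for *Idh3g*, -0.41 for *Sucla2* and 0.23 for *Idh3b*. Those of *Fh1* and *Idh3b* were lost in most fits that left out 1 library, and that of *Sucla2* after quantile normalization.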

How the results depend on the processing

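Calls for *Fh1* and *Idh3a* in C vs. D, C vs. B and B vs. A kept their direction and passed in every alternative run. With median-ratio scaling, 2 members were lower and 5 higher in B vs. A, where 45% and 42.8% of all genes were called. In C vs. D, 5 were lower and 4 higher, against 46.8% and 42% of all genes. On that scale *Idh3b*, *Idh3g* and *Suclg1* stood at 0.97, 0.72 and 0.18 in B vs. A. *Idh3b*, *Idh3g* and *Mdh2* stood at 1.17, 0.23 and 0.78 in C vs. D, and *Sucla2* at 0.01 in D vs. A. Median-ratio scaling and quantile normalization move the median gene by construction. The number higher in B vs. A was 0 with TPM and with quantile normalization and 2 with only the groups compared. With TPM and with quantile normalization all 9 members, *Cs* and *Mdh2* included, were called lower in B vs. A, against 7 in the main fit. In C vs. D the number lower was 9 with TPM and 8 with quantile normalization, against 7. The share of all genes called with either of these scalings is not given here. TPM gave *Cs* -0.23 and *Mdh2* -0.14 in B vs. A, *Cs* 0.05 in C vs. B and -0.27 in C vs. D, *Ogdh* 0.01 in the interaction, and 1 member higher in C vs. B (*Idh3b*). Quantile normalization gave *Cs* -0.19 and *Mdh2* -0.21 in B vs. A, *Cs* -0.24 in C vs. D, *Suclg1* -0.01 in D vs. A and 1 member lower there (*Idh3b*, -0.23). The number above 0 in the interaction was 0 with median-ratio scaling, no trend and limma-voom, and 0 to 1 when 1 library was left out; the cause was not tested. Leaving out 1 library moved *Cs* from -0.09 to 0.05 in C vs. B and from -0.05 to 0.09 in C vs. D, *Ogdh* from -0.01 to 0.16 in C vs. B and from -0.13 to 0.04 in the interaction, *Sucla2* from -0.08 to 0.01 and *Suclg1* from -0.01 to 0.07 in D vs. A. With the replicate block, the interaction of *Fh1* no longer passed (-0.49, adjusted p = 0.0557, range over the alternatives 0.00383 to 0.135), and no other call of a member changed. With limma-voom on recovered reads the interactions of *Fh1* (-0.65, adjusted p = 0.0594) and *Idh3b* (0.23, adjusted p = 0.0516) did not pass either. Depth limits *Fh1* most, at 105 to 270.0 reads in groups B and C.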
